A study of Mus musculus with 4 samples.

Results

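The 34 genes described here are genes of macrophages and other myeloid cells, with 4 genes of leukocytes in general among them. They were taken as a list of symbols, and every probe set named for 1 of them alone was used, which gave 50 probe sets of the 22690 on the array and all 34 genes of 12394 named ones. RNA came from female nulliparous mice on a C57BL/6 background that either lacked Sca-1, a membrane-anchored protein by which stem-like cells are often sorted, or were age-matched littermates of wild type. Mammary glands were taken from mice of both genotypes aged 6 weeks, and mammary tumors from mice of both genotypes, which gave 4 groups. The tumors were induced by 15 mg of MP (Depo-Provera, a depot progestin) injected under the skin and then DMBA, a carcinogenic polycyclic hydrocarbon, given by gavage weekly for 4 doses of 1 mg each. The age of the mice with tumors is not given in the labels, and the groups' own labels name MP-DMBA for the tumors but not for the glands. All mice ate standard chow. Each group was RNA pooled from 5 mice on 1 array, so every value below is a single measurement of a pool, no error between mice can be given, no test was possible, and a difference is a difference between arrays.

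Macrophages are phagocytes that live in every tissue and are joined during inflammation and in tumors by cells that arise from blood monocytes. Their growth and survival depend on the receptor Csf1r, and their gene programme on the transcription factor PU.1, the product of Spi1. They take up particles through scavenger receptors, lectins, Fc receptors (which bind antibody) and complement, and signal through adaptors such as Fcer1g and Tyrobp. In the mammary gland, macrophages lie along the ducts and in the fat pad, and tumors of the gland usually hold many of them.

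A difference was counted as higher or lower where it was at least 2-fold after adding 27.3 to each signal and taking log2, so that folds of dim genes come out too small. A signal of 168, the median of all values, served as a floor below which a signal was treated as dim. Each gene was read from its brightest probe set. All 34 genes reached the floor on at least 1 array. In gland, 23 did so in wild type and 32 in knockout, and in tumor 29 did so in each genotype. Signals below are given for wild type first and knockout second. Marco, Trem2 and Spi1 reached it on 1 array only. Trimmed mean signals were 500 on every array, while the lower quartile was 34.6 and 44.2 in gland and 18.5 and 17.9 in tumor. The beta-actin 3'/5' signal ratio, which rises as RNA degrades, was 2.35 and 1.61 in gland and 1.23 and 1.29 in tumor. Of 12 luminal epithelium genes 10 reached the floor on every array, and all 8 measured adipocyte genes did so in both glands. Sca-1 itself was not read here, so the knockout was not checked on these arrays.

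Stretches before the start site of 4 of these genes are shown because the genes differed between tumor and gland in both genotypes, Clec7a and Trem2 being higher in the tumors (Trem2 by 1 of its 2 probe sets, the other giving the opposite direction) and Mrc1 and Retnla lower, and because each holds the letters GAGGAA, the core of sites that PU.1 is known to bind. The sequences are the 250 bases before the start site from RefSeq (build GRCm38.p6), 5′ to 3′ on the strand of the gene, and the capitals mark GAGGAA or, where the letters lie on the other strand, TTCCTC.
Clec7a (chr6:129472780-129473029, minus strand): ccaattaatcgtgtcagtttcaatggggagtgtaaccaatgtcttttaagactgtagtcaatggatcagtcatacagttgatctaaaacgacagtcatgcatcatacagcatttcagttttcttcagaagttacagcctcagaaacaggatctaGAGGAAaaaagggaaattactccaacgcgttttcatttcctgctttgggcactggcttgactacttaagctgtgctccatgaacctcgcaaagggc
Trem2 (chr17:48346151-48346400, plus strand): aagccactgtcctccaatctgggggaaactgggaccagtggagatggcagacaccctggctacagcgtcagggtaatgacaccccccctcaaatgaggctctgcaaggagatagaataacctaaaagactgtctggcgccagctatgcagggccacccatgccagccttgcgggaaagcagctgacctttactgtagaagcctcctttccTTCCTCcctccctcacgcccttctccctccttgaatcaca
Mrc1 (chr2:14229164-14229413, plus strand): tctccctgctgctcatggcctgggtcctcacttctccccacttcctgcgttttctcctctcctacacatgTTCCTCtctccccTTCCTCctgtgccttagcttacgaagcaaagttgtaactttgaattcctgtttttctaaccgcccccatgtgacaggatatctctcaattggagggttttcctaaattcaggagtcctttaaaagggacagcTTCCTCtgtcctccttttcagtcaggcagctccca
Retnla (chr16:48842359-48842608, plus strand): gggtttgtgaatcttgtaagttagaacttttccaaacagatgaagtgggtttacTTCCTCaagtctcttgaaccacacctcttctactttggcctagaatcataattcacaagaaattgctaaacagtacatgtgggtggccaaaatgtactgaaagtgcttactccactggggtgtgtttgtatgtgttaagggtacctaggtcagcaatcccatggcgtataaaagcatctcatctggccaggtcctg
Counted from the start site, the letters begin at -96 in Clec7a, -40 in Trem2 and -196 in Retnla, and at -180, -167 and -35 in Mrc1. Clec7a has a further window, of another start site, that is not shown. RefSeq windows of 300 bases (250 before to 50 after a start site) matched 23 of the 34 genes by gene identifier. GAGGAA was found on either strand in a window of 17 of these 23 genes (73.9%), against 31.3% of all 27025 genes with a window. It was present in 5 of the 7 such genes that were higher in the tumors of both genotypes (4 of 6 without Trem2) and in 3 of the 4 that were lower. A match is a run of letters, and binding was not measured.

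**Figure D1:**
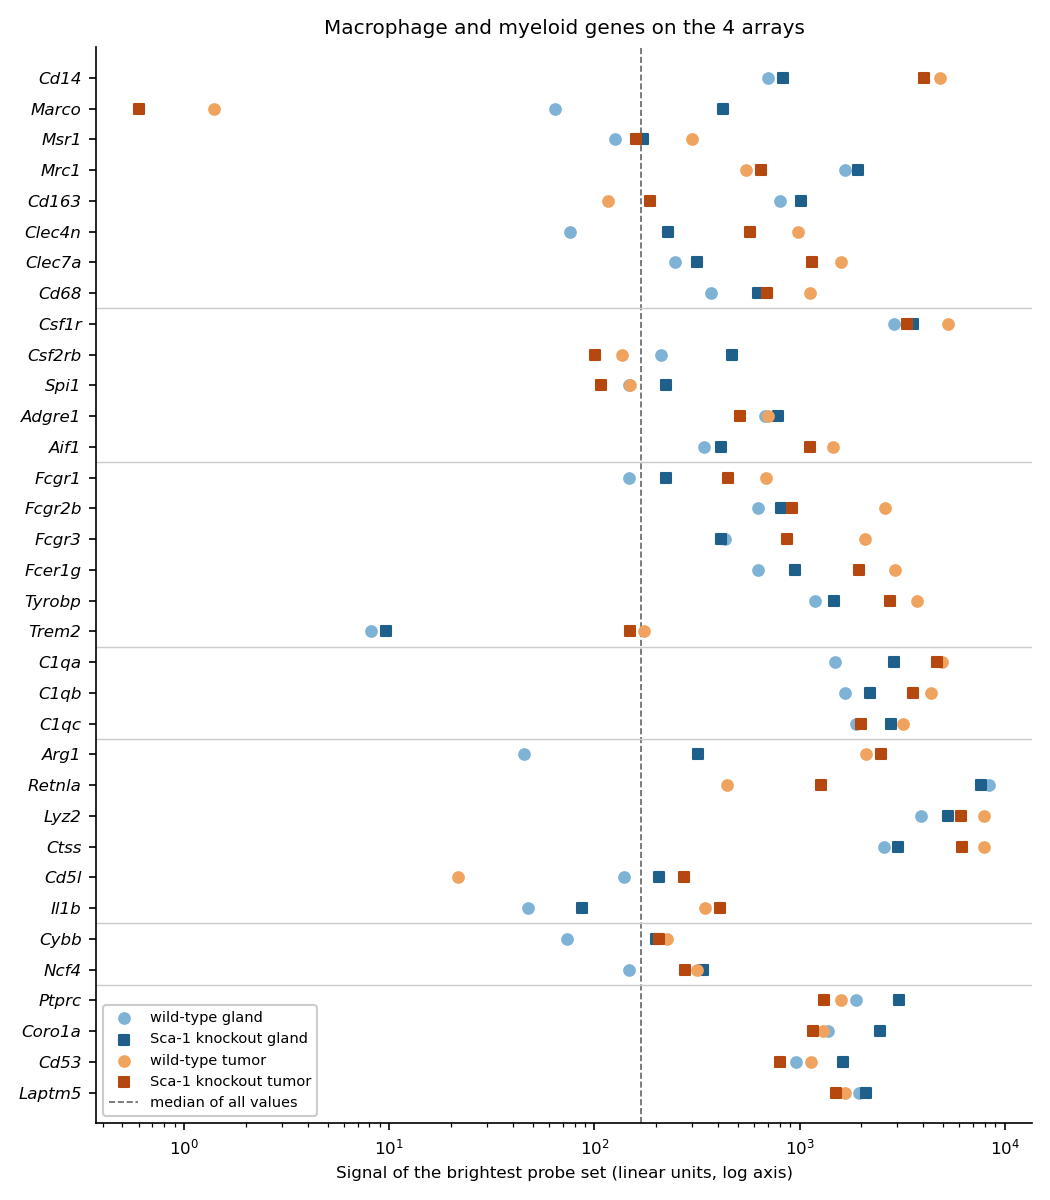
Signal of the brightest probe set (linear units on a log axis) of each of the 34 genes on the 4 arrays, ordered by role, with grey lines between roles; circles are wild type, squares Sca-1 knockout, and the dashed line is the floor of 168. The wild-type tumor holds the highest signal of 19 genes, while Marco, Mrc1, Cd163 and Retnla lie lower in both tumors than in both glands.

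Among the 4 arrays the wild-type gland was most often lowest and the wild-type tumor most often highest, but the genes did not all share this order. The wild-type gland had the lowest signal for 21 of the 34 genes, against 22.7% of all named genes, and the wild-type tumor had the highest for 19, against 19.5% of all named genes. The knockout gland had the highest signal for 11 genes (33.0% of all named genes) and the knockout tumor for 3 (22.0%), which were Arg1, Cd5l and Il1b. The lowest signal was in the knockout tumor for 8 genes (29.9% of all), the wild-type tumor for 4 (30.1%) and the knockout gland for 1 (17.3%). Both tumors lay above both glands for 18 genes (29.6% of all named genes did so), both lay below for 8 (46.6% of all), and the tissues overlapped for the other 8. In bulk tissue, fewer cells of a type and less RNA per cell cannot be told apart.

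In wild-type mice, 19 of the 34 genes were higher in tumor than in gland and 5 were lower, where 10.1% of all named genes were higher and 15.8% lower. The median log2 difference was 1.20, and that of all named genes was -0.13. In knockout mice 10 were higher and 7 lower, where 9.59% of all named genes were higher and 18.6% lower, and the median was 0.16 against -0.17 for all named genes. All named genes past 2-fold in knockout numbered 1188 higher and 2300 lower as deposited, but 1968 and 1611 with each array brought to a common median. These comparisons use different arrays. All 10 genes that were higher in knockout mice were also higher in wild type, which is 52.6% of the wild-type set, and 6.91% of all named genes were higher in both. They were Arg1, Cd14, Clec4n, Clec7a, Trem2, Il1b, Aif1, Fcgr3, Fcer1g and Ctss. The genes lower in both genotypes were Retnla, Cd163, Mrc1 and Marco, 80.0% of the wild-type set and 57.1% of the knockout set, and 12.2% of all named genes were lower in both.

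Receptors for microbial and modified ligands went both ways. Cd14, which presents lipopolysaccharide to Toll-like receptors, had gland signals of 704 and 827 and tumor signals of 4831 and 4064. The tumors lay well above the glands, 6.64-fold in wild type and 4.79-fold in knockout. The lectin Clec7a (dectin-1), a receptor for fungal glucan, had signals of 246 and 317 in the glands and 1600 and 1151 in the tumors, 5.95-fold and 3.42-fold higher. Clec4n (dectin-2), a lectin for mannose-rich structures, had 75.8 and 227 in the glands and 979 and 573 in the tumors. Its wild-type gland signal was dim, and the folds were 9.76 in wild type and 2.36 in knockout. Cd68, a lysosomal glycoprotein of phagocytes, was 2.88-fold higher in wild type only by this count, with signals of 371 and 624 in the glands and 1119 and 694 in the tumors. Msr1, a scavenger receptor for modified lipoproteins, was likewise 2.12-fold higher in wild type, from a dim signal of 126 to 298, and in knockout it had 172 in gland and 159 in tumor.

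The mannose receptor Mrc1, the hemoglobin scavenger receptor Cd163 and Marco, which binds bacteria and particles, were lower in tumor. Mrc1 had gland signals of 1668 and 1926 and tumor signals of 547 and 647, 2.95-fold and 2.90-fold lower. Cd163 had 801 and 1013 in the glands and 116 and 188 in the tumors, 5.78-fold and 4.84-fold lower, and its wild-type tumor signal was below the floor. The groups did not overlap for either gene. Marco had 64.0 and 423 in the glands and 1.4 and 0.6 in the tumors. It passed the floor in the knockout gland and nowhere else, so the size of its folds, 3.18 in wild type and 16.2 in knockout, depends on the offset.

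All 6 Fc receptors and adaptors were higher in the wild-type tumor than in the wild-type gland, and 3 of the 6 in knockout. Fcer1g, the common gamma chain that carries the signal of activating Fc receptors, had gland signals of 630 and 948 and tumor signals of 2913 and 1949, 4.48-fold and 2.03-fold higher. Tyrobp (DAP12), the adaptor of Trem2 and related receptors, had 1186 and 1477 in the glands and 3719 and 2759 in the tumors, 3.09-fold higher in wild type and 1.85-fold in knockout. For both adaptors the 2 tumors lay above the 2 glands, as they did for 29.6% of all named genes. Fcgr1, the high-affinity IgG receptor, went from 147 to 688 in wild type (4.09-fold) and from 222 to 450 in knockout (1.91-fold). Trem2, a lipid receptor of macrophages, had 8.1 and 9.6 in the glands and 175 and 149 in the tumors. It reached the floor in the wild-type tumor alone, and its other probe set, dim on all arrays, gave -0.84 in wild type and -0.90 in knockout on the log2 scale, so the direction for Trem2 rests on 1 probe set.

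Complement C1q is built from 3 chains whose genes C1qa, C1qb and C1qc are neighbours on chromosome 4. C1qa had gland signals of 1481 and 2890 and tumor signals of 4968 and 4653. C1qb had 1657 and 2211 in the glands and 4366 and 3571 in the tumors, and C1qc had 1888 and 2797 in the glands and 3176 and 2003 in the tumors. C1qa and C1qb were 3.31-fold and 2.61-fold higher in tumor in wild type and within 2-fold in knockout (log2 0.68 for each). For C1qb this depended on the probe set, the others giving 1.15 and 0.94 in wild type and 1.22 and 0.59 in knockout. C1qc was within 2-fold in both, at 0.74 in wild type and -0.48 in knockout, and the tissues overlapped.

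Secreted products and enzymes went both ways, with log2 differences from -4.17 to 4.88 in wild type and from -2.57 to 2.86 in knockout. Arg1, the arginine-degrading enzyme linked to alternative activation, had gland signals of 45.1 and 321 and tumor signals of 2111 and 2504. It was 29.5-fold higher in tumor in wild type, where the gland signal was below the floor, and 7.27-fold in knockout. Retnla, a resistin-like secreted protein that is also counted as a marker of alternative activation, went the other way, with 8426 and 7675 in the glands and 443 and 1274 in the tumors, 18.0-fold lower in wild type and 5.92-fold in knockout. The cytokine Il1b had 47.5 and 87.0 in the glands and 347 and 409 in the tumors, 5.00-fold and 3.82-fold higher. Ctss, a lysosomal protease that trims the invariant chain of MHC class II, was 3.06-fold and 2.05-fold higher, with 2582 and 3004 in the glands and 7948 and 6179 in the tumors. Lyz2, the lysozyme of myeloid cells, was 2.02-fold higher in wild type, and its log2 difference in knockout was 0.22. Cd5l, a protein secreted by macrophages that limits their cell death, was 3.41-fold lower in the wild-type tumor, from a gland signal of 139 that was already below the floor, and had a log2 difference of 0.36 in knockout.

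Of the 9 genes that mark the lineage or all leukocytes, Aif1 alone was past 2-fold between tumor and gland in wild type by its brightest probe set. Csf1r, the receptor for the growth factor Csf1, had gland signals of 2890 and 3553 and tumor signals of 5284 and 3352, log2 differences of 0.86 in wild type and -0.08 in knockout. Adgre1 (F4/80), a surface marker of mouse macrophages, differed by 0.03 and -0.59, and Spi1 by 0.02 and -0.89. Aif1 (Iba1), an actin-bundling protein, was 4.02-fold and 2.62-fold higher in tumor. The leukocyte phosphatase Ptprc (CD45) had signals of 1881 and 3053 in the glands and 1589 and 1309 in the tumors, a difference of -0.24 in wild type and 2.30-fold lower in knockout. Coro1a, which organises actin in leukocytes, was 2.11-fold lower in the knockout tumor than in the knockout gland and differed by -0.09 in wild type. Its other probe sets gave -1.04 and -1.55 in wild type and -1.40 and -1.87 in knockout, the second being dim on all arrays. The tetraspanin Cd53 (0.23 and -0.99) and the lysosomal protein Laptm5 (-0.22 and -0.48) lay within 2-fold in both genotypes by the brightest probe set. The other Laptm5 probe sets gave -0.38 and 0.97 in wild type and -1.05 and -0.61 in knockout. Csf2rb, the beta chain of the receptors for Csf2 and Il3, was 3.88-fold lower in tumor in knockout and differed by -0.55 in wild type. Of the oxidase that makes superoxide, the catalytic subunit Cybb was 2.50-fold higher in tumor in wild type and the regulatory subunit Ncf4 differed by 0.96, and in knockout they differed by 0.05 and -0.27.

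**Figure D2:**
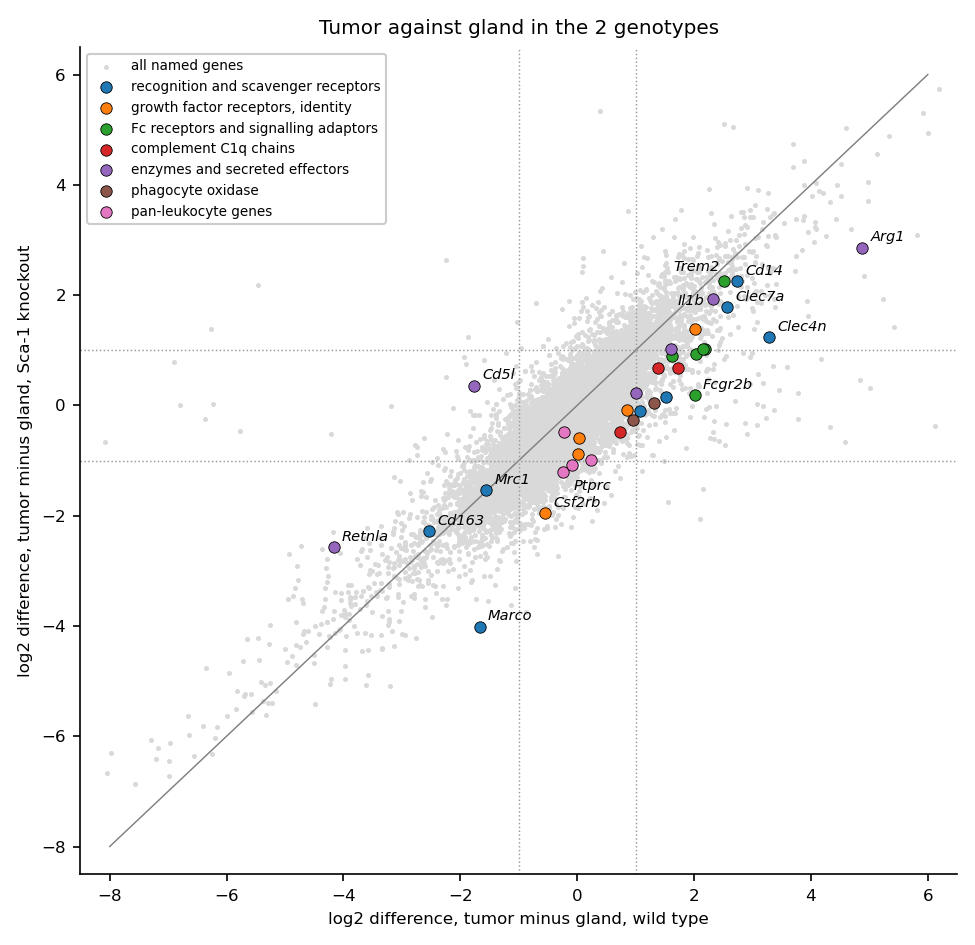
Log2 difference of tumor minus gland in wild type (x) against Sca-1 knockout (y) for the 34 genes, coloured by role, over all 12394 named genes in grey; dotted lines mark 2-fold and the solid line equality. Arg1, Cd14, Clec7a and Clec4n lie past 2-fold in both genotypes, Retnla, Cd163, Mrc1 and Marco below in both, and most other genes lie under the line of equality.

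Lists of other cells differed between the tissues as well. Of 8 measured adipocyte genes all 8 were lower in tumor in both genotypes, with summed gland signals of 45800 and 42094 and summed tumor signals of 5179 and 3884. Of 8 skeletal muscle genes 8 were lower in wild type and 7 in knockout. Of 14 T and NK cell genes 8 were lower and 1 higher in wild type, and 11 lower in knockout. Below the floor on both arrays were 9 of the 14 in wild type, among them the higher gene and 3 of the lower. In knockout 3 of the 14 were, 1 of them a lower gene. Of 12 B and plasma cell genes 8 and 9 were lower, 3 of the 8 in wild type being below the floor on both arrays. Of 12 keratinising epithelium genes, 10 were higher in tumor in wild type, with a median of 3.48. In knockout 3 were higher, 2 of them below the floor on both arrays, and 1 was lower, also below it. The median in knockout was -0.05, and 9 of the 12 were below the floor on both arrays. The part of these differences in tissue makeup in the myeloid values was not tested.

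In the glands, the comparison of genotypes found 6 of the 34 genes higher in knockout and none lower, where 1.19% of all named genes were higher and 0.282% lower. They were Marco, Arg1, Clec4n, Cybb, Csf2rb and Ncf4. The median log2 difference was 0.46, against 0.04 for all named genes, and 32 of the 34 differences were above 0, as were 55.8% of all named genes. The exceptions were Fcgr3 at -0.06 and Retnla at -0.13. With each array brought to a common median, which moved the median of all named genes to -0.15, 26 of the 34 were above 0, 3 were higher by 2-fold, and 31 lay above the median of all named genes. Of all named genes, 148 were higher and 35 lower as deposited, and 70 and 58 with the common median.

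Marco was 4.94-fold higher in the knockout gland (64.0 and 423) and Arg1 4.81-fold (45.1 and 321). Both went from below to above the floor, and both stayed past 2-fold under every alternative that measured them. Clec4n was 2.47-fold higher (75.8 and 227), Cybb 2.24-fold (73.7 and 199), Csf2rb 2.08-fold (211 and 470) and Ncf4 2.07-fold (148 and 337), and each of these 4 fell within 2-fold under at least 1 alternative. C1qa, at 0.95, lay just inside 2-fold. The 4 genes of leukocytes in general were all positive, Coro1a at 0.83, Cd53 at 0.73, Ptprc at 0.69 and Laptm5 at 0.11. Csf1r differed by 0.30, Adgre1 by 0.20, Cd68 by 0.71, Mrc1 by 0.20 and Lyz2 by 0.42.

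Most B and plasma cell genes and some neutrophil genes were higher on the same array. Of 12 B and plasma cell genes 8 were higher in the knockout gland and none lower, with a median of 1.32 and summed signals of 8718 and 15222; of the 12, 8 reached the floor in wild type and 11 in knockout. Of 14 T and NK cell genes 1 was higher, with a median of 0.66, and summed signals were 2818 and 4439. Of 11 neutrophil genes 5 were higher, among them S100a9 at 3.35-fold (75.8 and 318), S100a8 at 3.30-fold (105 and 409) and the granule protein Ngp at 2.97-fold (70.8 and 264). Of the 5, 2 were below the floor on both gland arrays: Camp, with a log2 difference of 1.31, and Elane, with 1.07. The brightest genes of the list had negative differences within 2-fold, Lcn2 at -0.22 (2341 and 2001) and Ltf at -0.40 (1623 and 1222), and these with Camp and Elane were singled out after their values were seen. None of 7 monocyte, 9 resident macrophage, 8 dendritic, 10 mast cell and eosinophil and 6 erythrocyte and platelet genes was past 2-fold either way. Their medians were 0.48, 0.44, 0.47, 0.42 and 0.13 in that order, against 0.46 for the 34 genes. Fcgr2b, the inhibitory Fc receptor that B cells also express, differed by 0.36 by its brightest probe set and by 0.46, 0.57 and 0.77 by the others. The part of these cells and of the difference in 3' to 5' ratios in the gland values was not tested.

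In the tumors, 2 of the 34 genes were higher in knockout and 2 were lower, where 1.85% of all named genes were higher and 1.79% lower. The median was -0.35, against 0.01 for all named genes, and 28 of the 34 differences were below 0, as were 48.7% of all named genes. The number below 0 was also 28 under median centring, quantile normalization and cyclic loess. The 6 above 0 were Cd5l, Retnla, Cd163, Arg1, Mrc1 and Il1b.

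The lower genes were low-affinity receptors for IgG. Fcgr2b, the inhibitory receptor, had tumor signals of 2606 and 916, 2.79-fold lower in knockout, and its 4 probe sets gave log2 differences of -1.48, -1.64, -1.09 and -1.73. Fcgr3, an activating receptor, had 2081 and 869, 2.35-fold lower. In the glands the same genes had 624 and 808 (Fcgr2b) and 433 and 413 (Fcgr3), so the wild-type tumor stood above the other 3 arrays for both. The extracellular parts of these receptors are alike in sequence, and how far their probe sets share signal was not tested. Fcgr4, another activating receptor that is not among the 34 genes, was 2.88-fold lower, with 1021 and 337. Fcgr1 differed by -0.58 and Fcer1g by -0.57.

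Cd5l was 6.14-fold higher in the knockout tumor, with signals of 21.5 and 273, and its gland signals were 139 and 207. The wild-type tumor was the low array, and the size of the fold depends on the offset, with a log2 difference between 1.22 and 3.60 over the alternatives. Retnla was 2.77-fold higher in the knockout tumor (443 and 1274), where both signals were far under those of the glands. Cd163 differed by 0.58 and Mrc1 by 0.23. Keratinising epithelium genes were lower in the knockout tumor for 9 of 12 (summed signals 9097 and 1595), and neutrophil genes for 2 of 11, S100a9 at 3.80-fold and S100a8 at 2.89-fold. The other 9 neutrophil genes were within 2-fold, among them Ltf at 0.14 and Lcn2 at -0.11. Of the 11, 7 were below the floor on both tumor arrays. Other lists had higher genes in the knockout tumor. Of 7 monocyte genes 2 were higher, the matrix protein Fn1 at 3.02-fold (889 and 2738) and F13a1 at 2.50-fold (269 and 712). Of 9 resident macrophage genes 2 were higher, both from signals below the floor on both tumor arrays, and 1 was lower, the receptor tyrosine kinase Mertk at 2.27-fold, with a median of 0.64. Of 8 muscle genes 3 were higher, 2 of them below the floor on both arrays, and of 12 B and plasma cell genes 1 was, Jchain, the joining chain of secreted antibody, at 3.29-fold (126 and 476). Their part in the myeloid differences was not tested.

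**Figure D3:**
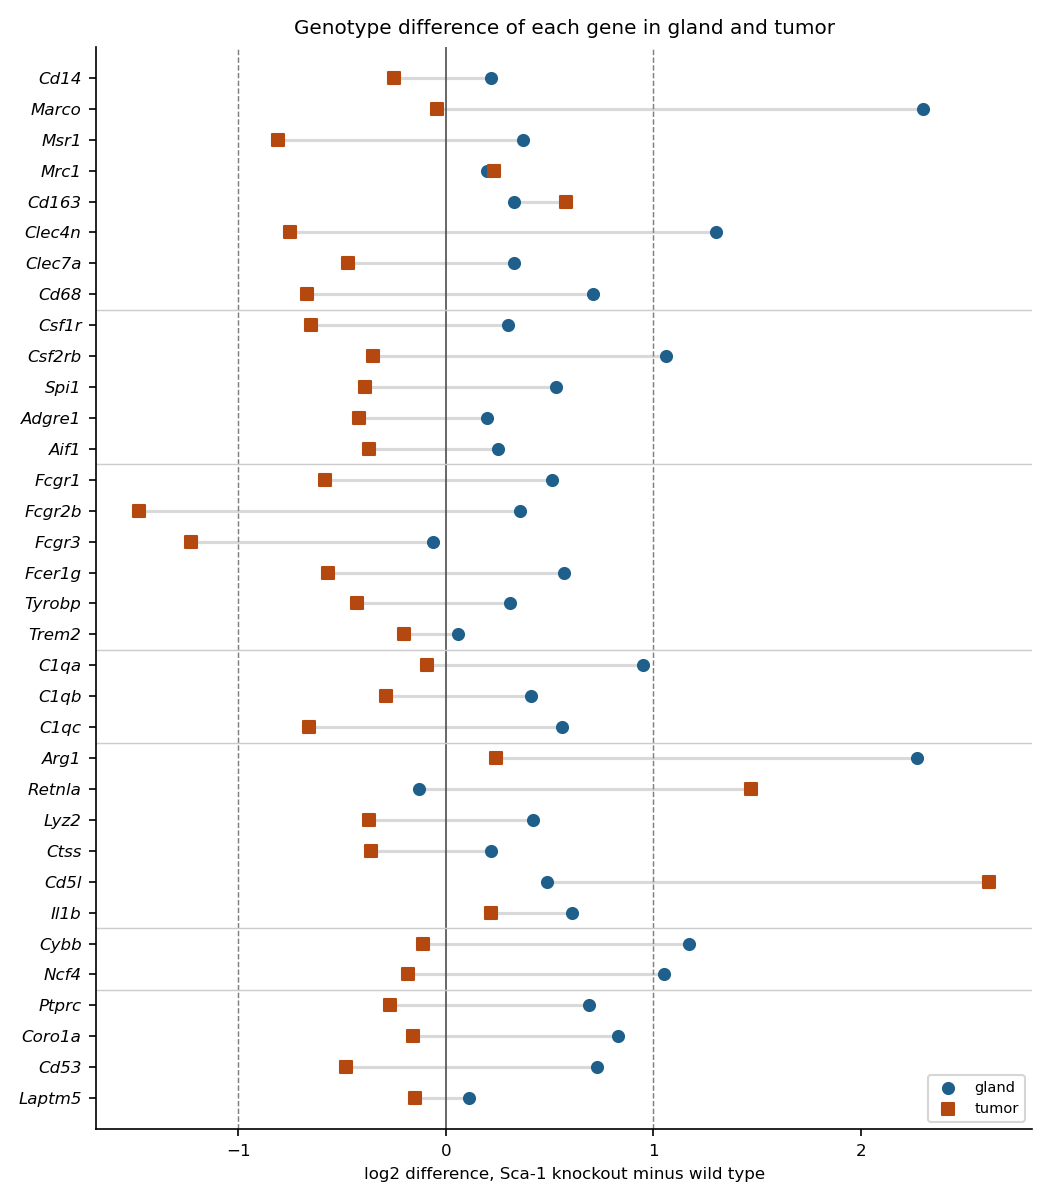
Log2 difference of Sca-1 knockout minus wild type for each gene in gland (circles) and tumor (squares), with dashed lines at 2-fold and grey lines between roles. For 27 of the 34 genes the gland value is above 0 and the tumor value below 0; Cd5l and Retnla lie farthest right in tumor, and Marco and Arg1 in gland.

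The genotype difference thus had opposite signs in the tissues for most genes. It was above 0 in gland and below 0 in tumor for 27 of the 34, against 27.0% of all named genes. Under median centring the number was 22. Some of the 27 had a value near 0, such as Trem2 (0.06) and Laptm5 (0.11) in gland and Marco (-0.04), C1qa (-0.09) and Cybb (-0.11) in tumor. These are smaller than the spread between probe sets of 1 gene, an SD of 0.24 in gland and 0.22 in tumor. The difference in tumor minus that in gland had a median of -0.96, against -0.03 for all named genes. It was past 4-fold downward for 3 genes, Marco at -2.34, Clec4n at -2.05 and Arg1 at -2.02 on the log2 scale, and past 4-fold upward for Cd5l at 2.13, where 0.565% and 0.299% of all named genes were. Marco in the tumors compares signals of 1.4 and 0.6, both far below the floor. Whether gland and tumor differ in this was not tested, since each value is 1 array.

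Where a gene had several probe sets, their differences were compared. Of 8 such genes, 6 had 1 sign over all probe sets in each of the 4 comparisons. The exceptions between genotypes were C1qb and Trem2 in gland and C1qb and Coro1a in tumor. In gland no C1qb probe set had the opposite sign, and the gene counts because its values were 0.41, 0.17 and 0.0 after rounding. Between tissues the exceptions were Laptm5 and Trem2 in wild type and Fcgr2b and Trem2 in knockout. For Fcgr2b in knockout the brightest probe set gave 0.18 for tumor minus gland and the others -0.18, -0.61 and -0.56. Csf1r had -0.65, -0.14 and -0.91 between the tumors. Over the 2375 genes with at least 2 probe sets whose mean signal reached the floor, the spread (SD) of a single probe set's log2 difference was 0.24 and 0.22 for the genotype difference in gland and tumor and 0.62 and 0.54 for tumor minus gland in wild type and knockout. It shows how far probe sets disagree on the same RNA, and says nothing of the variation from mouse to mouse.

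**Figure D4:**
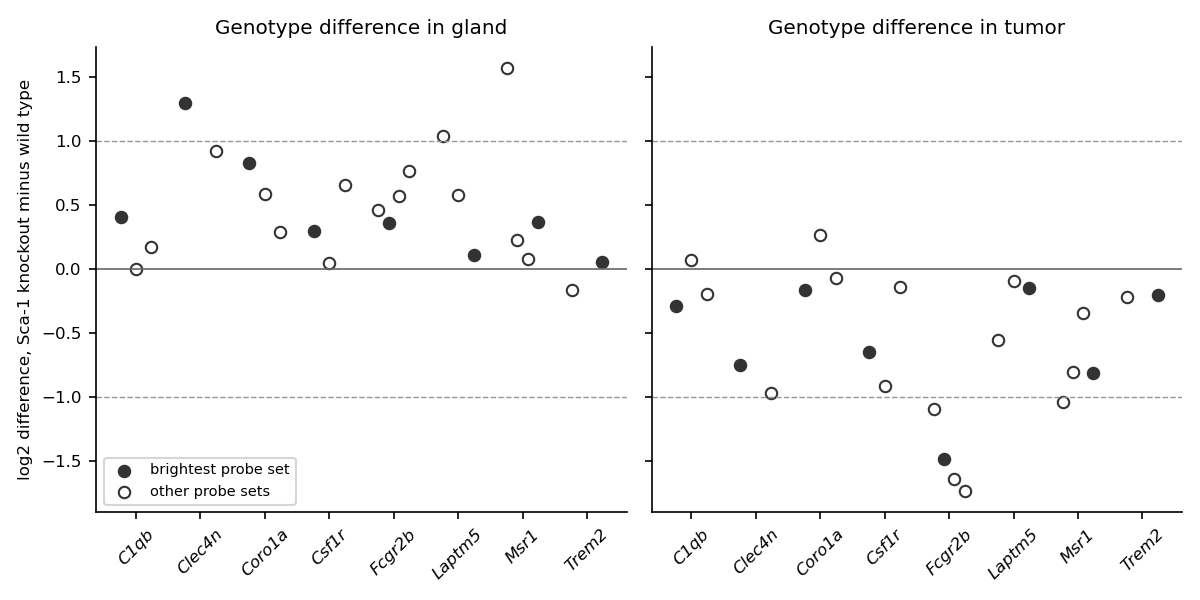
Log2 difference of Sca-1 knockout minus wild type for every probe set of the 8 genes with several, in gland (left) and tumor (right); filled points are the brightest probe sets and dashed lines mark 2-fold. All 4 probe sets of Fcgr2b lie below -1 in tumor.

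Other genes of the same pathways were read from lists. Of the Csf1 and Csf2 axis, 9 genes were measured, of which 1 was higher in the knockout gland, Csf2rb2, a second beta chain, at 2.23-fold (370 and 857). Csf1 itself had gland signals of 567 and 906 and tumor signals of 538 and 555, all differences within 2-fold. Of 13 genes of Fc receptor and DAP12 signalling, 2 were higher and 4 lower in tumor in wild type, and 4 lower in knockout. Of the lower genes in wild type, 1 was below the floor on both arrays. The kinase Syk, which docks on the adaptors, had 422 and 833 in the glands and 127 and 101 in the tumors, 2.92-fold and 6.70-fold lower, the reverse of Fcer1g and Tyrobp. Syk and the phosphatase Ptpn6 are also expressed in B cells.

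Of 11 measured complement genes, 5 were lower and 1 higher in tumor in wild type and 8 were lower in knockout, with medians of -0.45 and -1.45. Of these lower genes, 2 in wild type and 1 in knockout were below the floor on both arrays. C2, a protease of the classical pathway, was 8.11-fold and 5.99-fold lower, with 915 and 839 in the glands and 88.9 and 117 in the tumors. The integrin Itgax (CD11c) was the higher gene, at 3.45-fold in wild type. In the glands, 3 complement genes were higher in knockout. Cr2, a receptor of B and follicular dendritic cells, was 2.65-fold higher (106 and 325) and C5ar1 2.04-fold (71.7 and 175). Itgam had a log2 difference of 1.06 (44.0 and 121) and was below the floor on both gland arrays.

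Of 13 genes linked to alternative activation, none was higher in tumor, 5 were lower in wild type and 6 in knockout. Below the floor on both arrays were 7 of the 13 in wild type, 2 of them lower genes, and 5 in knockout, 1 of them a lower gene. The lectins Clec10a and Mgl2 were lower in both genotypes, Clec10a by log2 differences of -3.70 (wild type) and -2.64 (knockout) and Mgl2 by -2.83 and -2.81, with Clec10a at 1432 and 1297 in the glands and 85.0 and 185 in the tumors. These differences had the direction of Retnla, Mrc1 and Cd163 and the opposite of Arg1. Of 10 genes around interleukin-1, 3 were higher and 2 lower in tumor in wild type and 2 higher and 2 lower in knockout. Below the floor on both arrays were 2 of the higher and 1 of the lower in wild type, and 1 of the higher in knockout. The protease Casp1, which activates interleukin-1 beta, was 3.38-fold and 2.85-fold higher.

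Of 4 measured oxidase partners of Cybb and Ncf4, none was past 2-fold between genotypes. Rac2, the GTPase of blood cells that activates the oxidase, was 2.26-fold and 4.95-fold lower in tumor. The other 3 were not counted as different between tissues, and the list medians were 0.29 in wild type and -0.25 in knockout. Among them Cyba had positive log2 differences, 1.0 after rounding in wild type (1203 and 2430) and 0.56 in knockout. Of 10 myeloid transcription factors, Irf8 was higher in the knockout gland at 2.15-fold (384 and 856). Cebpa was 9.63-fold and 11.3-fold lower in tumor, and it is also a factor of fat cells. Runx1 was 3.20-fold higher in the wild-type tumor than in the wild-type gland.

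**Figure D5:**
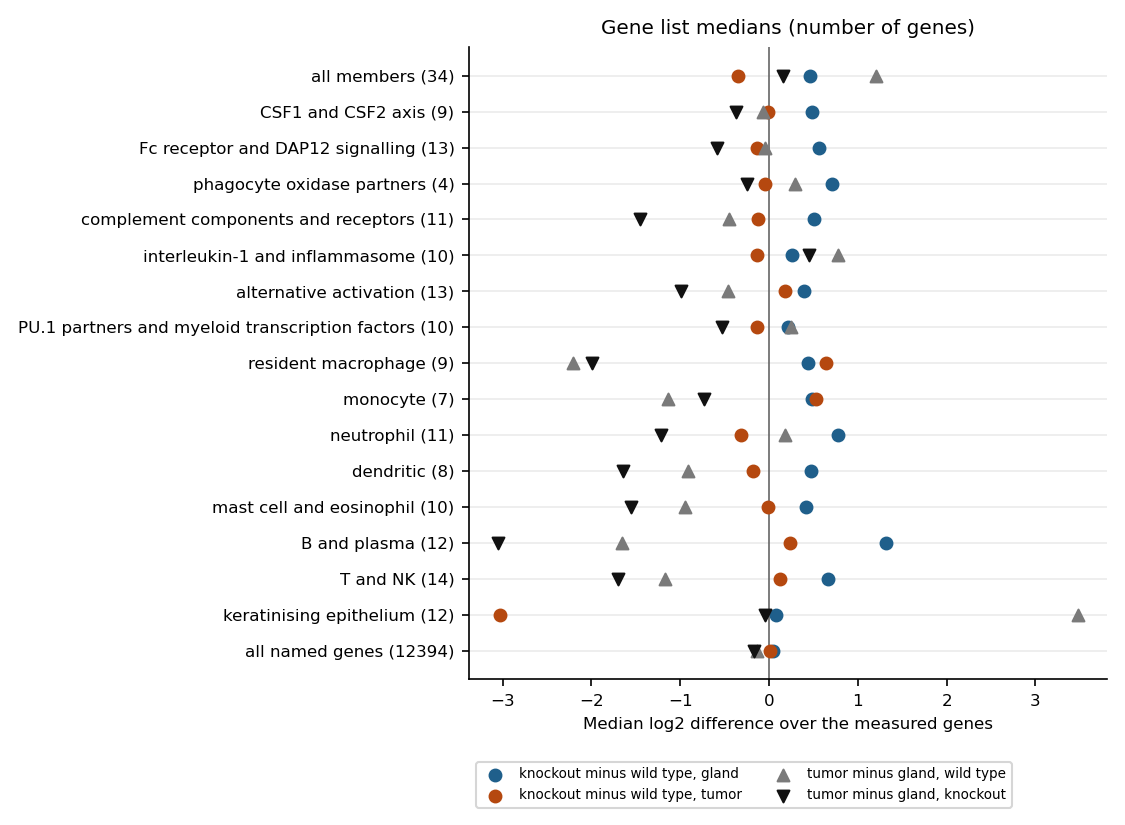
Median log2 difference of the 34 genes, of pathway and cell lists, and of all 12394 named genes, with the number of measured genes in parentheses; circles are differences between genotypes and triangles differences between tumor and gland. Resident macrophage, dendritic and mast cell lists have negative tumor minus gland medians in both genotypes, while the 34 genes have 1.20 in wild type and 0.16 in knockout.

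Markers of narrower myeloid classes went both ways between tumor and gland. Of 9 genes of resident macrophages, 5 were lower and 1 higher in tumor in wild type and 6 lower and 1 higher in knockout, with medians of -2.21 and -1.99. Lyve1, a hyaluronan receptor that lymphatic vessels also express, had gland signals of 1211 and 2074 and tumor signals of 51.3 and 127, and the lectin Cd209f had 1118 and 1215 in the glands and 56.4 and 153 in the tumors. Of 7 monocyte genes, 3 were higher and 4 lower in tumor in wild type, with Cd44 15.4-fold higher and the transglutaminase F13a1 7.12-fold lower, and 2 were higher and 3 lower in knockout. Of 11 neutrophil genes, 4 were higher and 1 lower in wild type (median 0.18), and 2 were higher and 6 lower in knockout (median -1.22), 7 and 5 of the 11 being below the floor on both arrays. Cd44 and Vcan are made by tumor and stromal cells too. Of 8 dendritic cell genes 4 were lower in wild type and 6 in knockout, and of 10 mast cell and eosinophil genes 5 and 7. Of these lower genes, 2 and 1 in the dendritic list and 2 and 4 in the other were below the floor on both arrays. The mast cell proteases Cpa3, Cma1 and Mcpt4 had signals between 252 and 688 in the glands and between 1.3 and 26.2 in the tumors.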

How the data were processed

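RNA of each pool was labelled with biotin by the array maker's protocol and put on 1 array, per the labels' protocols. The deposited intensity values are 1 linear signal per probe set, by software not given in the sources used here. On the values themselves, each array had the same mean, 500, after trimming 2% of probe sets at each end, so the authors had scaled them. The number of arrays limits the precision.

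Probe sets were named through GEO's platform annotation and current symbols taken by gene identifier (20364 of 20393 probe sets with 1 symbol matched; 691 had several symbols and 1606 were not listed). A further probe set that names Csf2rb beside another gene was left out. Signals were set on the log2(signal + 27.3) scale, the offset being the lower quartile of all values, with no filter on low values, and each gene was read from its probe set with the highest mean. Every one of the 34 genes was described, with up to 3 genes of each other list and comparison that had the largest difference above the floor. Procedures were tested on simulated data. Alternatives were other offsets, scalings (limma 3.58.1 for quantile normalization and cyclic loess), floors, probe set rules and a 1.5-fold threshold. The genes and lists were chosen with earlier results of these data known.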

Additional observations from a re-analysis of the deposited data

Results flagged for a closer look

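Both genes below had genotype differences of opposite sign in gland and tumor that differed by at least 4-fold, and the difference was not tested, since each value is 1 array. Marco had a genotype difference in tumor minus that in gland of -2.34 on the log2 scale, with 2.30 in gland and -0.04 in tumor, where both signals were far below the floor. Clec4n had -2.05, with 1.30 in gland and -0.75 in tumor, and its other probe set gave 0.92 and -0.97.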

How the results depend on the processing

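With 1 array per group no array could be left out, and no paired analysis was possible because the labels give no replicate numbers and each group is 1 pool. The median log2 difference of the 34 genes kept its sign under every alternative run, from 0.21 to 0.53 in gland and from -0.38 to -0.26 in tumor between genotypes, and from 0.90 to 1.35 in wild type and 0.05 to 0.53 in knockout between tumor and gland. All 4 genes called between the tumors stayed past 2-fold under every alternative that measured them, as did 2 of 6 between the glands, 18 of 24 between the tissues in wild type and 10 of 17 in knockout. With a 1.5-fold threshold, 12 genes were higher in the knockout gland and 7 lower in the knockout tumor. With the offset at the median of all values, 2 genes were higher in the knockout gland, 3 lower and 6 higher in tumor than gland in wild type and knockout, and 0 passed 4-fold either way in the difference of genotype differences. Median centring left 3 genes higher in the knockout gland, and median centring, quantile normalization and cyclic loess each left 1 gene at 4-fold downward in the difference of genotype differences. A floor on the mean value, which 30 genes passed, left 1 gene higher in the knockout tumor, 3 lower in wild-type tumor than gland and 0 upward in that difference. Without shared probe sets, which left 27 genes, 1 was lower in the knockout tumor and 6 were higher in tumor in knockout, and Trem2 reversed to -0.84 in wild type and -0.90 in knockout. Fewer genes were measured under these last settings. For the others the cause was not tested. All named genes shifted with the scaling too, those higher in the knockout gland numbering 148 as deposited and 70 under median centring, and those lower 35 and 58. Signals below the floor, such as those of Marco and Trem2, limit how well a fold is known.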
